A study of Mus musculus with 4 samples.

Results

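Transcripts of 9 enzymes that make serine or pass its carbon through folate were examined in mouse embryonic fibroblasts (MEFs, cultured cells of trypsin-dispersed embryo torsos) without and with Pf1. Phf12 encodes Pf1, a chromatin protein with PHD fingers and a partner of Sin3 corepressor complexes. The enzymes were Phgdh, Psat1 and Psph of serine synthesis, Shmt1 and Mthfd1 of the cytosolic folate pathway, and Shmt2, Mthfd2, Mthfd1l and Aldh1l2 of the mitochondrial one. They were found by platform gene symbol, which gave 24 of the 45101 probe sets in the deposited table and all 9 genes among the 18194 with a probe set of their own. The comparison set 2 Pf1 -/- lines (2 and 4, knockout or KO) against 2 Pf+/+ lines (5 and 6, wild type or WT), with 1 Affymetrix array per line. The 4 lines shared 1 number prefix, were grown in 10% serum with 50 µM β-mercaptoethanol at 6% oxygen, and came from embryos of day 13.5 or 14.5 at passage 2 to 3. Neither embryonic day nor passage was given line by line, and nothing in the labels ties a line to an embryo of its own, so the p-values below describe the spread between these lines, which may be technical.

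Serine is made from the glycolytic intermediate 3-phosphoglycerate. Phgdh oxidises it, Psat1 adds the amino group and Psph removes the phosphate. Serine hydroxymethyltransferase, Shmt1 in the cytosol and Shmt2 in mitochondria, then moves a carbon of serine onto tetrahydrofolate and releases glycine. In mitochondria Mthfd2 and Mthfd1l carry this carbon on to formate, which leaves for the cytosol and is built by Mthfd1 into the folates used for purine and thymidylate synthesis. Aldh1l2 instead oxidises mitochondrial formyl-tetrahydrofolate to carbon dioxide and yields NADPH. In cultured cells several of these genes are known targets of Atf4, a transcription factor that responds to amino acid shortage.

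Every value below is a log2 RMA value that the authors' table gives relative to the median of its probe set over the 4 arrays, so levels of different genes cannot be compared, and 2 middle lines often mirror each other around 0. Differences are KO minus WT on the log2 scale with the standard error (SE) of a limma fit across all genes, n = 2 lines per genotype, and a call needed an adjusted p under 0.05. Probe set 1434922_at of Phf12 stood at -0.37 and -0.41 in KO lines 2 and 4, against 0.56 and 0.37 in WT lines 5 and 6, and its other probe set, 1453579_at, did not separate the genotypes (0.012, limma adjusted p = 0.965). Whether these probe sets lie in the deleted part is unknown here, so they may not check the labels. Fibroblast markers could not be checked as levels, since the centring removed them, but 6 of 10 were called lower in KO lines and all 10 differences were below 0, with list medians of -0.52 and -0.32 in KO lines 2 and 4 and 0.52 and 0.26 in WT lines 5 and 6. Of 8 smooth muscle markers 7 were called higher, with list medians of 0.52 and 0.31 in KO lines 2 and 4 and -0.43 and -0.33 in WT lines 5 and 6. The 8 macrophage markers had medians of -0.34 and 0.60 in KO lines 2 and 4, against 0.37 and -1.33 in WT lines 5 and 6, and 9 proliferation markers had medians of 0.064 and 0.14 in KO lines, against -0.42 and -0.064 in WT lines. Limma called 0 members of either list, with 0 of the macrophage and 4 of the proliferation markers at an unadjusted p under 0.05. Over all 18194 genes, limma called 6.95% lower and 5.21% higher, and 5368 had an unadjusted p under 0.05. It called 2 of 8 epithelial markers higher and 1 lower, 1 of 8 endothelial markers in each direction, and 0 of 6 erythroid markers, with 1 of these at an unadjusted p under 0.05. Their part in the results below was not tested. In such bulk RNA, fewer cells of a type and less transcript per cell cannot be told apart.

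Of the 9 enzymes, 2 fell in the KO lines, both of mitochondrial folate metabolism, and limma called none higher, also at an unadjusted p under 0.05. The dehydrogenase Aldh1l2 fell 5.24-fold and the formate-releasing synthetase Mthfd1l 1.83-fold. Over all 18194 genes 12.2% were called, 6.95% lower and 5.21% higher, so 2 called members of 9 is a small count read against a broad background. Of the 24 probe sets, 2 were called, both lower, against 8.32% called and 4.4% called lower over all 45037 tested. Both KO lines lay below both WT lines in 12 of the 24, among them all 6 of Phgdh, which share a target, against 26.3% of all probe sets. The other 7 enzymes did not pass. Counting Psat1 and Psph, 4 of the 9 had an unadjusted p under 0.05 in the limma fit, as had 5368 of the 18194 genes. The members' median difference was -0.31, against -0.0027 over all genes, and 7 of 9 differences were below 0, against 50.8% of all genes. By arm, both KO lines lay below both WT lines for all 3 serine synthesis enzymes and for 2 of 4 mitochondrial enzymes, and above both WT lines for both cytosolic folate enzymes; the difference between arms was not tested. Over all genes, 29.5% had both KO lines below both WT lines and 58.2% had no overlap in either direction.

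**Figure D1:**
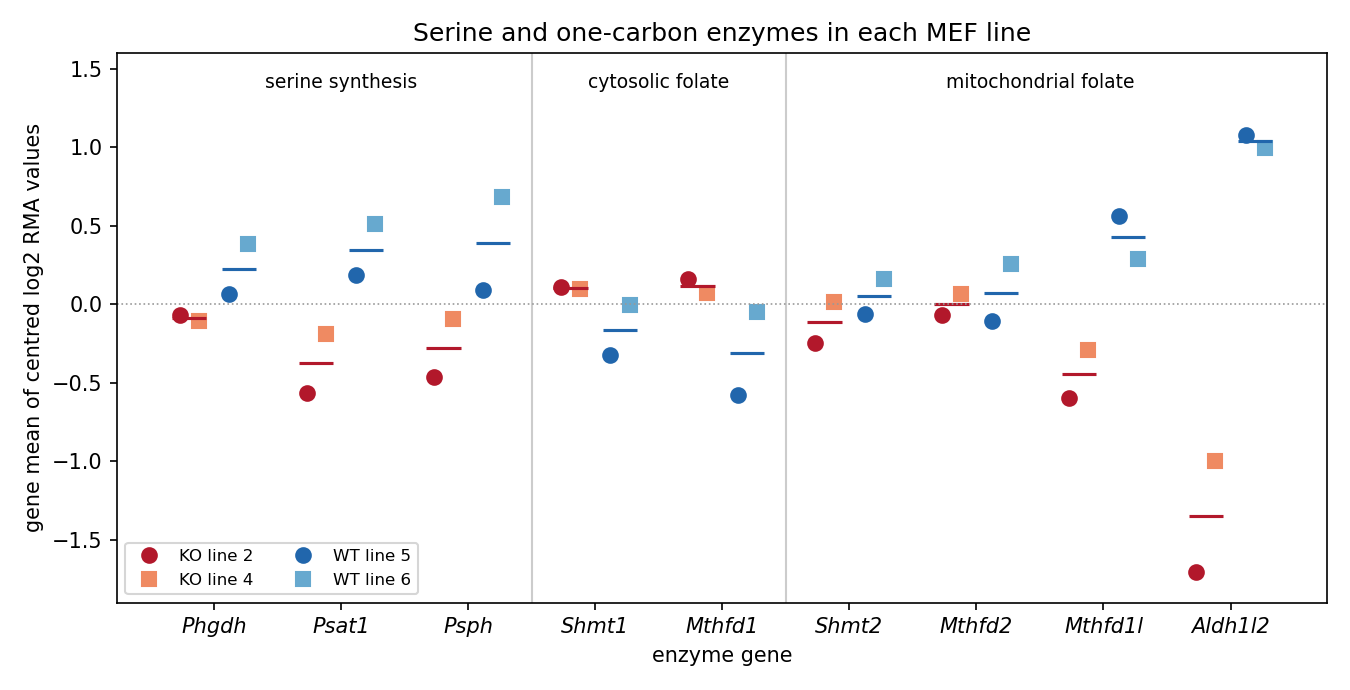
Gene means of the centred log2 RMA values (vertical axis) for the 9 enzymes (horizontal axis), 1 point per MEF line with KO lines left of WT lines; short bars are genotype means of n = 2 lines. Aldh1l2 shows the widest separation, at -1.71 and -0.997 in KO lines against 1.08 and 0.997 in WT lines, while the 4 lines interleave for Shmt2 and Mthfd2.

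Promoters are shown for the serine synthesis chain, whose members lay on 1 side, and for the Mthfd1l and Mthfd1 pair, which lay on opposite sides. The sequences are RefSeq's (GRCm38.p6), which held a promoter for 8 of the 9 genes. Each run covers 100 bases before to 50 after the first start listed there, 5′ to 3′ on the gene's strand, and capitals mark the CCAAT box, or its reverse complement ATTGG, as a script found it.
Phgdh (chr3:98339920-98340069, minus strand): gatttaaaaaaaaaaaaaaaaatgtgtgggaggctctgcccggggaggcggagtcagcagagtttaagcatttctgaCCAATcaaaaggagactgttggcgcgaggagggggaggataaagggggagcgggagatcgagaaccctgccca
Psat1 (chr19:15925010-15925159, minus strand): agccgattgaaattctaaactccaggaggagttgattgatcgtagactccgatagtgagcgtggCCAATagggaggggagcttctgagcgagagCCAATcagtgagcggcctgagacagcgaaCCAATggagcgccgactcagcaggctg
Psph (chr5:129787204-129787353, minus strand): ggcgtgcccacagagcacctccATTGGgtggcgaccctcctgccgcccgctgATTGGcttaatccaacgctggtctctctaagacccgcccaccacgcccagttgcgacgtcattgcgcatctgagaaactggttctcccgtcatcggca
Mthfd1l (chr10:3972975-3973124, plus strand): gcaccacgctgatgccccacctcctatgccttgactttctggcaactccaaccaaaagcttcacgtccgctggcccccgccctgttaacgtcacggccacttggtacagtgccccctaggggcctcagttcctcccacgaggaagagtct
Mthfd1 (chr12:76255132-76255281, plus strand): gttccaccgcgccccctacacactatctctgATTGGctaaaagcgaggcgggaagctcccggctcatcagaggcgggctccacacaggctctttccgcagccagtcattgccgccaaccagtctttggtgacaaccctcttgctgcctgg

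The Psat1 run holds 3 CCAAT boxes, the Psph run 2, the Phgdh and Mthfd1 runs 1 each and the Mthfd1l run none. In windows of 250 bases before to 50 after the start, searched on both strands, CCAAT stood in 6 of the 8 members (Phgdh, Psat1, Psph, Shmt1, Mthfd1 and Mthfd2) and in 37.9% of 27025 promoters, 1 per gene. It was therefore found both in members that lay lower and in members that lay higher in KO lines. The core of the composite element that Atf4 binds with C/EBP factors, TGATGNAA, stood in none of the 8 windows and in 4.06% of all promoters, and the E-box CACGTG in none of the 8 and in 7.24%. The absence of letters applies to these windows alone.

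In the serine synthesis arm all 3 transcripts lay lower in KO lines, and none passed the test. Phgdh, the first and committed enzyme, had gene means of -0.071 and -0.11 in KO lines 2 and 4, against 0.064 and 0.38 in WT lines 5 and 6. Its difference was -0.31 ± 0.127 SE (limma adjusted p = 0.186, 95% interval -0.64 to 0.016). The gap between the nearest KO and WT line, 0.14, was narrower than the 0.32 by which WT line 6 exceeded WT line 5. Phgdh had 6 probe sets, of which 2 are also annotated to the pseudogenes Gm8096 and Gm6756 and stayed out of the gene mean. All 6 had both KO lines below both WT lines, with differences between -0.42 and -0.28, and the shared pair gave -0.42 (1426657_s_at) and -0.37 (1456471_x_at). The 4 others carry the suffix _x_at, which Affymetrix gives to probe sets that may bind other transcripts, so signal of a pseudogene and of Phgdh cannot be separated here. With the shared probe sets counted in, the gene's difference was -0.34 (limma adjusted p = 0.164).

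Psat1, the aminotransferase, stood at -0.57 and -0.19 in KO lines 2 and 4, against 0.19 and 0.51 in WT lines 5 and 6. KO line 2 was lowest and WT line 6 highest, and the genotypes did not overlap. The difference of -0.73 ± 0.176 SE, 1.65-fold lower in KO, narrowly missed the threshold (limma adjusted p = 0.0611, unadjusted p = 0.00895). Both of its probe sets ran the same way, at -0.83 (1451064_a_at, limma adjusted p = 0.0685) and -0.62 (1454607_s_at, limma adjusted p = 0.0818). Psph, the phosphatase that completes the chain, followed the same order of lines. Its 1 probe set, 1415673_at, read -0.46 and -0.092 in KO lines 2 and 4, against 0.092 and 0.68 in WT lines 5 and 6. The WT lines differed by 0.59, against a gap of 0.18 between the genotypes, and the difference of -0.67 ± 0.234 SE did not pass (limma adjusted p = 0.137).

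**Figure D2:**
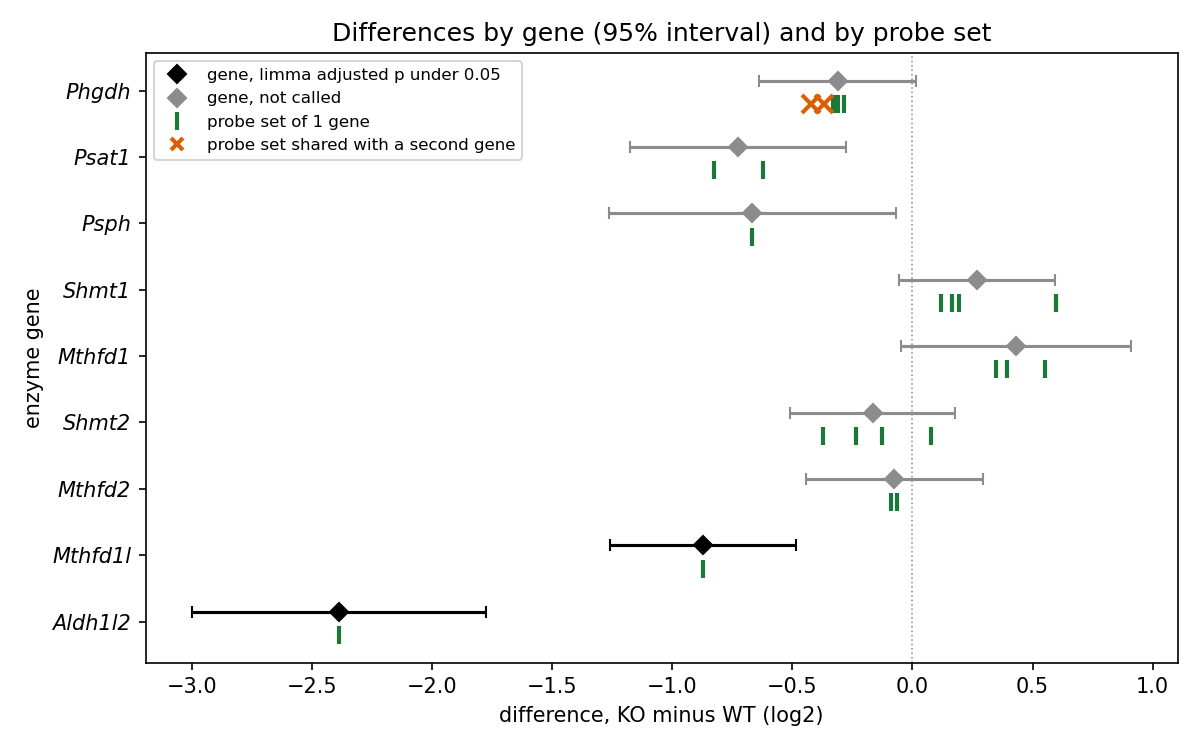
Differences KO minus WT on the log2 scale (horizontal axis) for the 9 enzymes (vertical axis); diamonds with bars are gene means with 95% intervals of the limma fit, black where called, and the marks under them are single probe sets. Only the Mthfd1l and Aldh1l2 diamonds are black, and the Phgdh marks, shared probe sets included, lie between -0.42 and -0.28.

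Among the mitochondrial folate enzymes, Aldh1l2 showed the largest difference of the 9 and Mthfd1l the next. Aldh1l2 read -1.71 and -0.997 in KO lines 2 and 4, against 1.08 and 0.997 in WT lines 5 and 6, on its 1 probe set, 1436119_at. The WT lines lay 0.080 apart and the KO lines 0.71, while 1.99 separated the nearest lines of the 2 genotypes. It fell by 2.39 on the log2 scale (-2.39 ± 0.238 SE, 95% interval -3.00 to -1.78, limma adjusted p = 0.0154), which placed it 37th by size of difference among the 18194 genes. Without KO line 2, KO line 4, WT line 5 or WT line 6 the difference was -2.03, -2.74, -2.35 and -2.43. Aldh1l2 was still called only without KO line 4, in fits that leave 1 line in a genotype and call far fewer genes over the whole array. The 3 other genes whose 4 line values lay nearest to its own were H2-Q10, Rab33a and Phf11d, at mean absolute distances of 0.0081, 0.040 and 0.071 over 4 lines. They were picked as nearest among 18194 genes, so small distances follow from the choice, and shared regulation was not tested.

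Mthfd1l, which splits formyl-tetrahydrofolate into formate, read -0.60 and -0.29 in KO lines 2 and 4, against 0.56 and 0.29 in WT lines 5 and 6 (1456653_a_at). The nearest lines of the genotypes were 0.58 apart, wider than the 0.31 between the KO lines and the 0.27 between the WT lines. The difference was -0.87 ± 0.151 SE (95% interval -1.26 to -0.48, limma adjusted p = 0.0316). With 1 line left out the difference was -0.72 (KO line 2), -1.02 (KO line 4), -0.73 (WT line 5) and -1.01 (WT line 6). The call was lost each time, in fits that leave 1 line in a genotype and call far fewer genes over the whole array. Aldh1l2 and Mthfd1l are the only members in which WT line 6 did not lie above WT line 5. For the other 7 it did, by 0.23 to 0.59, where 51.5% of all genes had WT line 6 above WT line 5.

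The 2 upstream mitochondrial enzymes overlapped between the genotypes. Shmt2, which loads the serine carbon onto folate, read -0.24 and 0.015 in KO lines 2 and 4, against -0.061 and 0.16 in WT lines 5 and 6. Its difference was -0.17 ± 0.134 SE (limma adjusted p = 0.492), with an interval of -0.51 to 0.18. Its 4 probe sets disagreed in sign: 1434204_x_at gave -0.37 without overlap, 1426423_at -0.24, 1455084_x_at -0.13 and 1455985_x_at 0.077, and none was called. Mthfd2, the dehydrogenase and cyclohydrolase between Shmt2 and Mthfd1l, read -0.068 and 0.065 in KO lines 2 and 4, against -0.11 and 0.25 in WT lines 5 and 6. Its difference of -0.076 ± 0.144 SE had an interval of -0.44 to 0.29 (limma adjusted p = 0.794), so changes within those bounds are not excluded. Its probe sets agreed closely, at -0.063 and -0.089.

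The cytosolic folate enzymes lay on the other side, again without a call. Mthfd1, which joins formate to tetrahydrofolate and interconverts the folates that feed purine and thymidylate synthesis, read 0.16 and 0.074 in KO lines 2 and 4, against -0.58 and -0.048 in WT lines 5 and 6. The KO lines were 0.087 apart and the WT lines 0.53, and WT line 5 alone lay far below the rest. The difference was 0.43 ± 0.186 SE (limma adjusted p = 0.207), and all 3 probe sets had both KO lines above both WT lines, with differences between 0.35 and 0.55. Without WT line 5 the difference was 0.17, and without WT line 6 it was 0.70. The proliferation markers had their lowest median, -0.42, in the same WT line 5, and their part in the Mthfd1 difference was not tested. Shmt1 read 0.11 and 0.098 in KO lines 2 and 4, against -0.32 and -0.0053 in WT lines 5 and 6, a difference of 0.27 ± 0.127 SE (limma adjusted p = 0.244). Its probe set 1425179_at gave 0.60, with -0.90 in WT line 5, while each of its 3 other probe sets gave 0.12 to 0.19 and overlapped between the genotypes.

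Pairs of members were also set against each other within each line, where a shift of the whole array cancels. The value of Mthfd1l minus that of Mthfd1 was -0.76 and -0.37 in KO lines 2 and 4, against 1.14 and 0.34 in WT lines 5 and 6, a difference of -1.30. The value of Shmt2 minus that of Shmt1 was -0.35 and -0.083 in KO lines, against 0.26 and 0.17 in WT lines, a difference of -0.43. Between the called mitochondrial enzymes, the value of Aldh1l2 minus that of Mthfd1l was -1.11 and -0.71 in KO lines, against 0.51 and 0.71 in WT lines. The genotypes did not overlap in any of these contrasts, which for Mthfd1l and Mthfd1 followed from their single values, already on opposite sides. Over all single genes, 58.2% had no overlap in either direction, and no share was computed for pairs. They were chosen after the single values were seen and are given without a test; with 2 lines against 2, the smallest exact two-sided permutation p is 0.333.

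**Figure D3:**
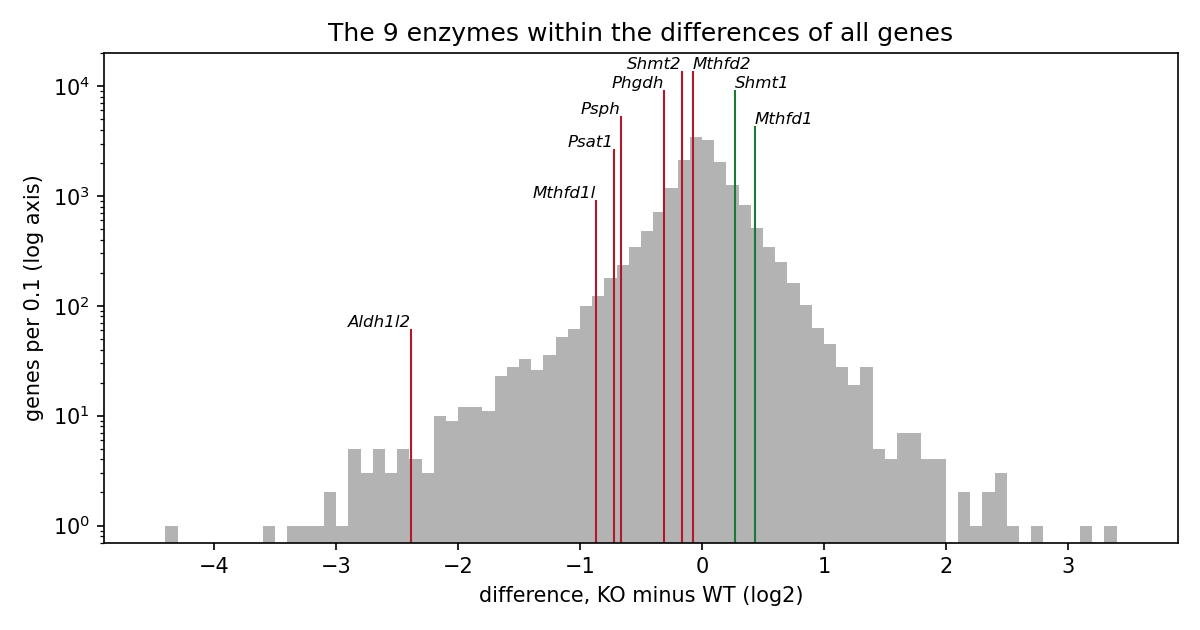
Differences KO minus WT on the log2 scale (horizontal axis) of all 18194 genes in bins of 0.1, with the number of genes per bin on a log axis; vertical lines mark the 9 enzymes, red for differences below 0 and green for those above 0, and their heights only separate the names. Aldh1l2 stands at -2.39 in the thin lower tail, and Shmt2 and Mthfd2 stand within the main body.

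Of the other genes of the pathway, 77 of 88 listed had a named probe set, and 14 were called lower and 3 higher, with a median difference of -0.11. Of the 14, 11 belong to the list of Atf4 and its targets. Over all genes 6.95% were called lower and 5.21% higher. With 1 line left out, 1 genotype holds 1 line, and limma called far fewer genes both among the 77 and over all 18194. The loss of calls is therefore not particular to these genes. The calls given below for single lists are those with all 4 lines. Among 13 other folate genes, 1 rose and 12 did not pass, against 5.21% of all genes called higher. The gene that rose was Slc46a1, the proton-coupled folate transporter, at 0.30 and 0.21 in KO lines 2 and 4, against -0.29 and -0.21 in WT lines 5 and 6 (0.50 ± 0.0856 SE, limma adjusted p = 0.0301). Aldh1l1, the cytosolic counterpart of Aldh1l2, read -0.31 and -0.11 in KO lines, against 0.23 and 0.23 in WT lines, and narrowly missed the threshold (-0.44 ± 0.102 SE, limma adjusted p = 0.0553). The mitochondrial folate carrier Slc25a32 stood at 0.43 (limma adjusted p = 0.0724) and the folate receptor Folr1 at 0.49 (limma adjusted p = 0.238), the Folr1 difference being set by KO line 4, at 0.75, with KO line 2 at 0.072 and WT lines 5 and 6 at -0.079 and -0.072.

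Of 16 genes of serine and glycine transport and use, 3 fell and 13 did not pass, against 6.95% of all genes called lower. Slc1a4 and Slc1a5 are neutral amino acid transporters that carry serine, and Srr, serine racemase, converts it to D-serine. Slc1a4 read -0.45 and -0.28 in KO lines 2 and 4, against 0.28 and 0.57 in WT lines 5 and 6 (-0.79 ± 0.133 SE, limma adjusted p = 0.0299). Slc1a5 differed by -0.46 ± 0.0928 SE (limma adjusted p = 0.0407) and Srr by -0.39 ± 0.0839 SE (limma adjusted p = 0.048). The amino acid transporter Slc38a1 pointed the other way (0.40, limma adjusted p = 0.0504). The list's median difference was 0.032.

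Of 14 genes of the methionine cycle and transsulfuration, 1 rose and 13 did not pass, against 5.21% of all genes called higher. Mtrr, which reactivates methionine synthase, rose by 0.66 ± 0.141 SE (limma adjusted p = 0.0472). Cth, cystathionine gamma-lyase, spanned a wide range, at -1.40 and -0.28 in KO lines 2 and 4, against 0.28 and 0.99 in WT lines 5 and 6. Its difference of -1.48 ± 0.426 SE was not called (limma adjusted p = 0.0894), and KO line 2 and WT line 6 set most of it. Ahcyl1 (-0.44, limma adjusted p = 0.0694) and Mtap, which salvages methylthioadenosine (0.52, limma adjusted p = 0.0768), were not called either. None of 5 glycolytic enzymes near 3-phosphoglycerate was called by limma, with 3 at an unadjusted p under 0.05, against 5368 of all 18194 genes. Their 5 differences were all below 0, from -0.68 for Bpgm (limma adjusted p = 0.0728) to -0.059 for Pgam1, with Gapdh at -0.27, Pkm at -0.26 and Pgk1 at -0.21.

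Among 23 genes of Atf4 and its amino acid and stress targets outside the 9 enzymes, 11 fell, none rose and 12 did not pass. Limma called 6.95% of all genes lower and 5.21% higher. The median difference of the list was -0.51, against -0.0027 over all genes. The largest decrease was in Slc7a3, a cationic amino acid transporter, at -1.02 and -0.89 in KO lines 2 and 4, against 0.89 and 1.46 in WT lines 5 and 6 (-2.13 ± 0.199 SE, limma adjusted p = 0.0144). Stc2, a secreted stress-response glycoprotein, differed by -1.84, the pseudokinase Trib3 by -1.51, Vldlr by -1.31 and Cebpb by -1.06. Aldh18a1, of proline synthesis, differed by -0.79 ± 0.159 SE (limma adjusted p = 0.0416) and Asns, asparagine synthetase, by -0.67 ± 0.143 SE (limma adjusted p = 0.0457). Asns read -0.45 and -0.20 in KO lines 2 and 4, against 0.20 and 0.49 in WT lines 5 and 6. Herpud1 (-0.57), Atf5 (-0.56), Eif4ebp1 (-0.51) and Cebpg (-0.42) also fell. Chac1, Ddit3, Atf3 and Sesn2, further stress targets, were not called, with differences of -0.55, -0.27, -0.061 and 0.029. Ppp1r15a, a phosphatase subunit that reverses eIF2α phosphorylation, pointed the other way from the called members and narrowly missed the threshold (0.45 ± 0.099 SE, limma adjusted p = 0.0507).

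Atf4 itself read -0.25 and -0.029 in KO lines 2 and 4, against 0.047 and 0.23 in WT lines 5 and 6, and was not called (-0.28 ± 0.119 SE, limma adjusted p = 0.206). Atf4 activity is set largely at translation, which these arrays do not measure. Of 8 named regulators of the pathway, Mdm2 rose (0.63 ± 0.102 SE, limma adjusted p = 0.0276), against 5.21% of all genes called higher. The other 7 did not pass, among them Men1 at -0.20, Nfe2l2 at -0.14, Mycn at -0.33 and Myc at -0.088.

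**Figure D4:**
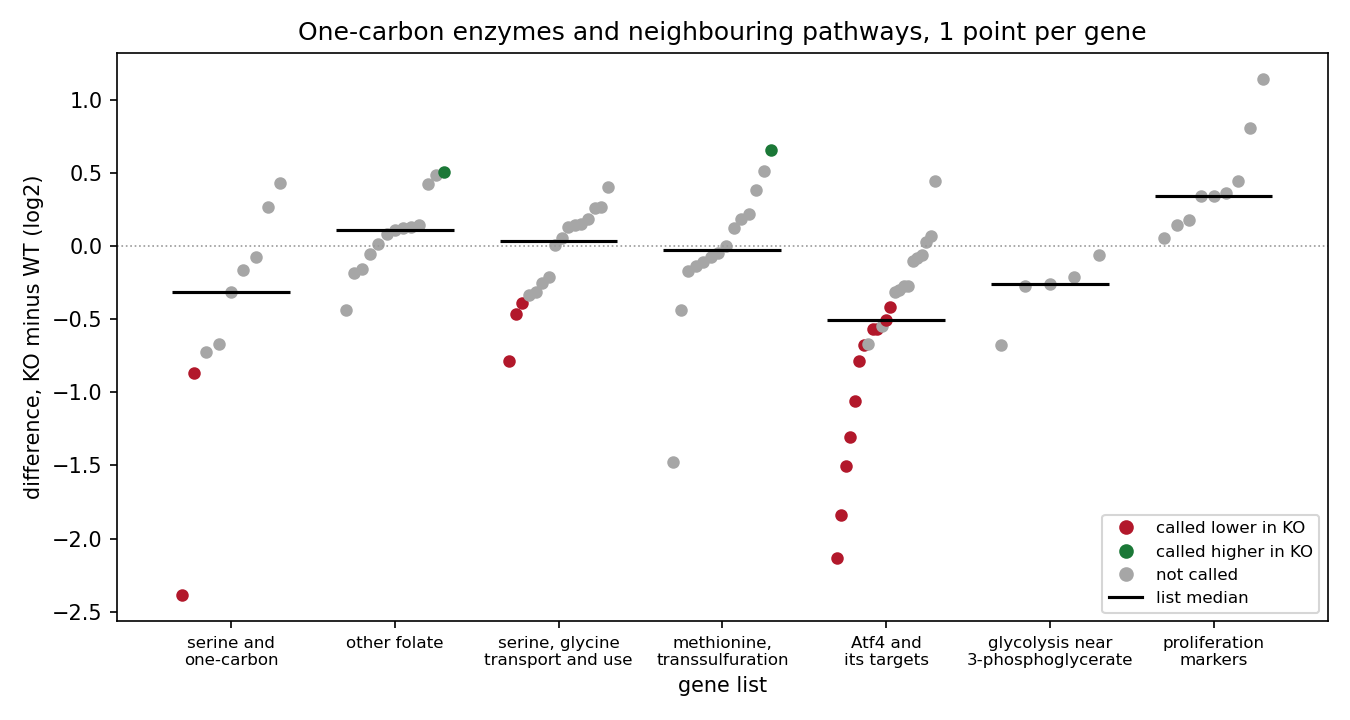
Differences KO minus WT on the log2 scale (vertical axis), 1 point per gene, for the 9 enzymes, 5 neighbouring gene lists and the proliferation markers (horizontal axis); red points were called lower, green called higher and grey not called, and black bars are list medians. The Atf4 list has 11 red points and a median of -0.51, whereas the other folate genes centre on 0.11 with 1 green point.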

How the data were processed

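The deposited table of 45101 probe sets and 4 arrays held log2 values that the authors made with Affymetrix Expression Console and RMA, per the submitters' processing notes, without versions. The base of the logarithm follows from RMA. All probe sets had a median of 0 within 1e-06, so the authors' values were centred by a step the labels do not describe; signal levels and detection could not be judged, and precision is limited by there being 4 arrays. Probe annotation was that of the full mouse genome array, although the series text names its smaller 430A 2.0 version. Symbols were updated through Entrez identifiers (34754 probe sets matched, 0 changed).

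The mean of all probe sets annotated to 1 gene was taken per gene (18194 genes). Knockout minus wild type was fitted without covariates by limma 3.58.1 in R 4.3.3 (lmFit, eBayes) over all genes, and over the 45037 probe sets that are not controls, with Benjamini-Hochberg adjustment over each whole table, called under 0.05. There were 2 residual and 3.04 prior degrees of freedom per gene. The fit was tested on simulated data with 200 changed genes of 18194, over 10 runs. It recovered 2.38% of changes at 1.5-fold, 49.9% at 2-fold and 79.9% at 4-fold. In the real data limma called 2211 genes (12.2%). The adjusted threshold depends on the share of changed genes, so these recoveries do not carry over to the real fit. An enzyme without a call may still have changed. The alternatives were each line left out, quantile normalisation, array medians set to 0, array weights, robust eBayes, the median of probe sets, and plain probe sets in place of those suffixed _s_at, _x_at or _a_at. Counting the shared Phgdh probe sets was added after seeing the data. No filter on dim probe sets and no background correction could be varied.

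The 9 members, the gene lists and the rule for named genes (all members, Phf12, the called genes of each pathway list, filled up to 4 by the smallest p where fewer were called, and 3 genes nearest to the member with the largest difference) were chosen with earlier results of these data known. Pgam1, Myc, Mycn, Chac1, Ddit3, Atf3, Sesn2 and Ppp1r15a, which lie outside that rule, and the motifs were chosen after values were seen.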

Additional observations from a re-analysis of the deposited data

How the results depend on the processing

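Under quantile normalisation, array medians set to 0, array weights, robust eBayes, the median of probe sets, plain probe sets and the added count of shared Phgdh probe sets, all 63 differences of the 9 enzymes kept their direction and their side of the threshold, and the called enzymes numbered 2 each time. Called pathway genes numbered 17 with all lines and 17 to 20 under the 4 of these settings run for them. Leaving out 1 line leaves 1 residual degree of freedom and 1 line in a genotype. Limma then called fewer of the 9 enzymes, of their probe sets and of the pathway genes. It also called far fewer genes and probe sets over the whole array, so the lost calls are not particular to the members. Aldh1l2 and Mthfd1l alone had a call to lose: Aldh1l2 kept it only without knockout line 4, and Mthfd1l lost it each time. Of the 36 differences with 1 line left out, 1 reversed: Mthfd2 stood at 0.10 without wild-type line 6, within a range of -0.26 to 0.10. Phgdh ranged from -0.47 to -0.15, Psat1 from -0.92 to -0.53, Psph from -0.96 to -0.37, Shmt1 from 0.11 to 0.43, Shmt2 from -0.30 to -0.036 and Mthfd1 from 0.17 to 0.70. No paired analysis was possible because the genotypes share no replicate numbers. With 2 lines per genotype and values without signal over background, dim probe sets could not be set apart from bright ones.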
